A study of Mus musculus with 8 samples.

Results

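The genes whose symbol starts with Prame or Oog were followed in RNA-seq of mouse embryonic stem cells (mESCs) in which 2 kinds of H3K9 methyltransferase activity had been removed or inhibited. Among the 24062 genes in the files, 16 carry such a symbol. Of these, 13 reached 10 counts summed over the 8 libraries and are described here, and 3 stayed under it. Pramel4 with 11 counts and Oog4 with 14 counts lie just inside this limit, and Oog1 with 4 counts lies just outside it. Both Oog2 and Oog3 had 0 counts in every library.

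All 8 libraries came from a single mESC line, #33-6, in which Setdb1 is deleted on addition of 4-hydroxytamoxifen (4-OHT). SETDB1 is a methyltransferase of histone H3 lysine 9 (H3K9), and UNC0642 is a small-molecule inhibitor of G9a and GLP, a pair of related enzymes that make most H3K9me2. WT mESCs received neither agent, and UNC0642-treated mESCs received 2 µM UNC0642 for 3 days. Setdb1 KO mESCs received 800 nM 4-OHT for 5 days. The combined condition is Setdb1 KO with UNC0642, for which the labels give 800 nM 4-OHT for 2 days and then 2 µM UNC0642 for 3 days, whereas the methods of the study give 5 days of 4-OHT. Each condition had 2 replicates of 1 cell line, so p-values measure the spread between cultures of that line.

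PRAME proteins are built from leucine-rich repeats, and the human founding gene was found as a tumour antigen that is silent in most adult tissues. In rodents the family has expanded by tandem duplication, and many copies, among them the oogenesins (Oog genes), are known from the germ line, the oocyte and the early embryo. In mESCs, Pramel7 and Pramel6 are known for the naive state, in which PRAMEL7 uses the CUL2 ubiquitin ligase to lower UHRF1 and with it DNA methylation.

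The 16 genes lie at 4 places in the mouse genome (GRCm38). An array on chromosome 4 of 1.01 Mb (chr4:143394428-144408464) holds 11 of them, in the order Pramel1, Pramef8, Oog4, Pramef6, Pramef25, Pramef17, Pramel4, Oog3, Oog2, Pramel5 and Pramef12. Pramel7 and Pramel6 lie beside each other on chromosome 2 (chr2:87489087-87510872). Pramel3 and Prame lie on the X chromosome (chrX:135302307-135627705), and Oog1 lies on chromosome 12 (chr12:87602688-87608850). In current RefSeq names, Pramef8 is Pramel12, Pramef6 is Pramel11, Pramef25 is Pramel16, Pramef17 is Pramel14 and Pramef12 is Pramel13. Pramef12 overlaps Pramef12os and Prame overlaps Gm15021, and since the strand setting of the counting is not given in the sources used here, reads from the overlaps may not be told apart.

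Duplicated genes share sequence, and this limits which copy a read can be given to. A stretch of 50 bases was called shared if it also occurs in the transcripts of another gene. No stretch of Pramef12, Pramef8, Pramel1 or Pramel6 was shared, and for Prame, Pramel7 and Oog4 the share was 1.53%, 1.43% and 0.707%. Pramel5 (25.9%) and Pramef6 (33.7%) were partly shared. Most stretches of Pramef25 (63.5%), Pramef17 (73.5%), Pramel3 (81.8%) and Pramel4 (87.4%) were shared, so the levels of these 4 genes are uncertain as to the copy. The silent genes had shares of 19.7% (Oog3), 33.4% (Oog2) and 89.0% (Oog1). The closest copy of Pramel3 is Gm15023, that of Pramef17 is Gm13128 and that of Pramef25 is Gm13040.

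Promoter windows of 300 bases (250 before to 50 after the RefSeq start, GRCm38.p6) were matched for 15 of the 16 genes, all but Pramef8. The 4 windows printed here stand for the different patterns of expression described further on, and CpG dinucleotides are in capitals. Pramel1 (chr4:143394191-143394490, plus strand) has a CpG-dense window and was expressed in WT mESCs. Pramef17 (chr4:143994320-143994619, minus strand) and Pramel7 (chr2:87492369-87492668, minus strand) lie on different chromosomes but have similar windows and different responses. The Pramel7 window lies inside the gene as placed by GENCODE (chr2:87489087-87497093), which starts further upstream. Which start was used in these cells was not tested. Pramel3 (chrX:135302066-135302365, plus strand) had its high level in the combined condition.
Pramel1: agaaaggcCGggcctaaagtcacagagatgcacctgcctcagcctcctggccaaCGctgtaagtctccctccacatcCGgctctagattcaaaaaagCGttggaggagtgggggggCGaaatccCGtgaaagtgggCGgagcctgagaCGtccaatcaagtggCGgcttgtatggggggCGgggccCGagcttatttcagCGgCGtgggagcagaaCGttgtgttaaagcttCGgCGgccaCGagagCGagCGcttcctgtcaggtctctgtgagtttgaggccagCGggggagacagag
Pramef17: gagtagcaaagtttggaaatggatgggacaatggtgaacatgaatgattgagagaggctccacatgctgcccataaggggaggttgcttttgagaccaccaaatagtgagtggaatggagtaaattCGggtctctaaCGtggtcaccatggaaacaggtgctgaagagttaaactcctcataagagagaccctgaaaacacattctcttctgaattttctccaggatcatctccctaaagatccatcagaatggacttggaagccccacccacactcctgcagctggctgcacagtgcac
Pramel7: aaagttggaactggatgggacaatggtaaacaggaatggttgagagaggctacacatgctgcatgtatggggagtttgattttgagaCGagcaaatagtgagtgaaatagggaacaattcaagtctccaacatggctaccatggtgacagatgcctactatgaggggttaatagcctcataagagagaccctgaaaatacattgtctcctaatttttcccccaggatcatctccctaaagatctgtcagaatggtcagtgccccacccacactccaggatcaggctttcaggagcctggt
Pramel3: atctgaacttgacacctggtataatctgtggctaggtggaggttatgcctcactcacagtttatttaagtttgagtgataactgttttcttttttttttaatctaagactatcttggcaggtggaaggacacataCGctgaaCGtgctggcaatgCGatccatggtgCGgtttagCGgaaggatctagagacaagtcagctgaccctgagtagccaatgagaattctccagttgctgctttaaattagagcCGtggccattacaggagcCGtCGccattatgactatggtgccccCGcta

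The Pramel1 window held 20 CpG, the Pramel3 and Prame windows 9 each, and the Pramef12 window 7. The other 11 windows held 3 or fewer (3 in Pramel6 and Oog4, 2 in Pramef17 and Pramel4, 0 in Pramel5 and 1 in the remaining 6), as did 31.4% of all 32851 promoter windows in the table. The Pramef17 and Pramel7 windows were 78% identical in a global alignment, and those of Pramel4 and Pramel5 89%. For comparison, the median over the 105 pairs of windows was 53.7%. The longest transcripts of Pramef17 and Pramel7 were 75.6% identical, more than the transcripts of the neighbours Pramel7 and Pramel6 (53.1%). Each window was also searched on both strands for short motifs. The core promoter box TATAAA was found in the windows of Oog2 and Oog3, both silent here, and in 13.6% of all windows. The E-box CACGTG, present in 7.15% of all windows, was in 0 of the 15. Part of the E2F6 motif, GCGGGA, present in 19.98% of all windows, was in 0 of the 15 as well.

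The libraries held between 11702590 and 26807807 counts, with the smallest totals in replicate 1 of WT mESCs and of the combined condition. Levels are given as CPM (counts per 1000000 counts of the TMM-normalized library size), on which 3 counts, taken as the floor of detection, correspond to 0.108 to 0.311 CPM. In replicates 1 and 2, the level of Setdb1 was 169 and 127 CPM in WT mESCs, 130 and 86.3 CPM in UNC0642-treated mESCs, 47.3 and 51.0 CPM in Setdb1 KO mESCs and 61.1 and 34.1 CPM in the combined condition, counted over the whole gene, so RNA of the targeted gene remained in both KO conditions. Its log2 difference from WT was -1.59 ± 0.44 in Setdb1 KO mESCs and -1.64 ± 0.44 in the combined condition (SE, edgeR adjusted p = 0.181 and 0.0746), and with the replicate number as a blocking factor it fell in both (adjusted p = 0.0164 and 0.00593). Markers of mESCs were present in every library (10 of 10 genes, summed level 4322 to 6600 CPM).

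The summed level of the 16 genes was higher in all 3 treated conditions than in WT mESCs. It was 40.9 and 40.1 CPM in WT mESCs, 80.4 and 70.5 CPM in UNC0642-treated mESCs, 81.7 and 61.0 CPM in Setdb1 KO mESCs, and 119 and 123 CPM in the combined condition. The libraries of this condition lay above all others, and the WT libraries below all others. Pramef8 alone gave 54.3% and 58.9% of the family counts in WT mESCs and was the leading member in 7 libraries. In replicate 2 of the combined condition, Pramel3 led with 27.7%, closely followed by Pramef8 with 27.4%. Without Pramef8 the mean summed level was 17.6 ± 1.58 CPM in WT, 44.6 ± 0.611 CPM in UNC0642-treated, 35.2 ± 4.16 CPM in Setdb1 KO and 83.4 ± 8.60 CPM in the combined condition (SD, n = 2). More members were also detected: 4 and 7 of the 16 had at least 3 counts in the WT libraries, against 12 and 13 in the libraries of the combined condition. In bulk RNA, more cells that express a gene and more RNA per cell cannot be told apart.

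**Figure D1:**
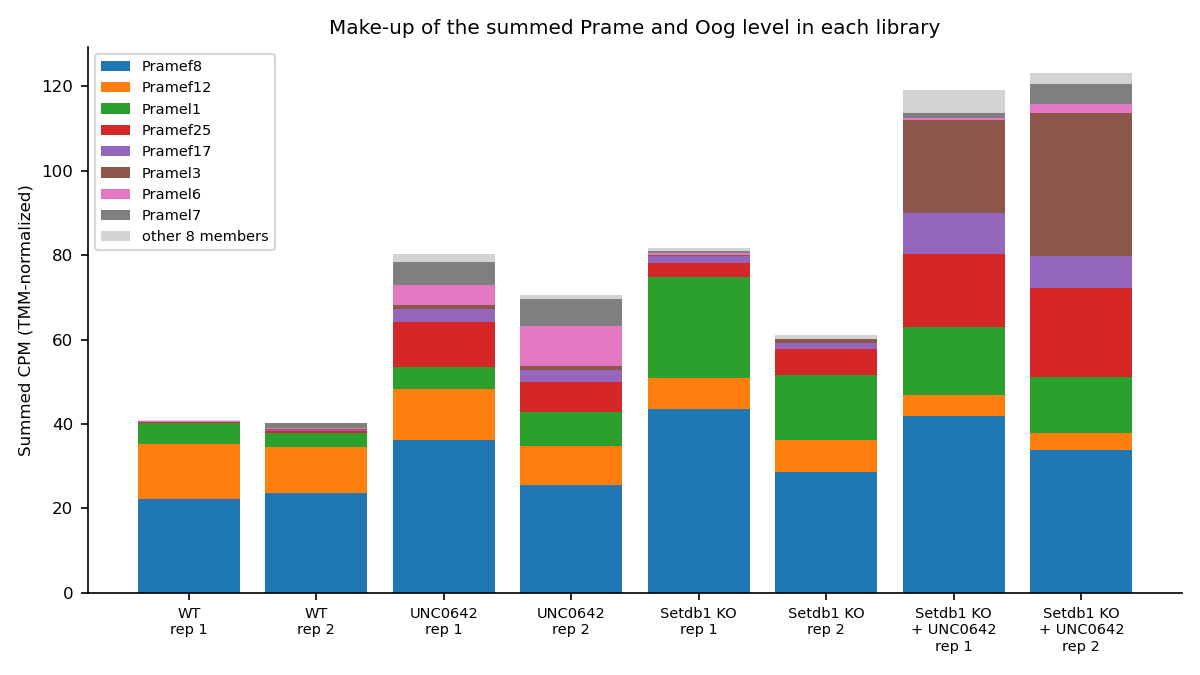
Summed CPM (TMM-normalized) of the 16 Prame and Oog genes in each of the 8 libraries, stacked by gene, 1 bar per library. Pramef8 and Pramef12 fill most of the WT bars, and the bars of the combined condition reach 119 and 123 CPM with the largest parts from Pramef8, Pramel3, Pramef25 and Pramel1.

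For the tests, each condition was compared with WT mESCs and the combined condition also with each single treatment, by edgeR's quasi-likelihood test over all 16245 genes and transposable element subfamilies that passed the expression filter. Genes were called at a Benjamini-Hochberg adjusted p under 0.05. Of the 13 described genes, 11 passed the filter, all but Oog4 and Pramel4. Since the filter favours genes that are high in some condition, the tested genes do not stand for all members. The 3 comparisons with WT mESCs share the WT libraries.

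In the combined condition, 4 of the 11 tested genes rose against WT mESCs (Pramef17, Pramef25, Pramel3 and Prame), each more than 10-fold, and none fell. Over all features 3.6% were called higher and 0.505% lower, and 2.87% were called higher and changed more than 10-fold. In 9 of the 11 genes both treated libraries lay above both WT libraries, as in 22.3% of all features, and in Pramef12 below (21.1%). The median log2 fold change of the 11 genes was 3.65, against -0.01 over all features. With the replicate numbers taken as blocks, 6 of the 11 genes rose (adding Pramef6 and Pramel1) and Pramef12 fell, where 9.98% of all features were called higher and 7.19% lower. Without the block, leaving out WT replicate 1 left 0 of the 4 calls, and leaving out WT replicate 2 left 2 (Pramef17 and Pramel3).

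In Setdb1 KO mESCs, 1 of the 11 genes rose against WT mESCs (Pramef17), where 1.11% of all features were called higher and 0.00616% lower. The block added Pramef25 and Pramel1 (3.8% of all features higher). The Pramef17 call was lost without WT replicate 1 or 2, without Setdb1 KO replicate 1 or 2 and without replicate 1 or 2 of the combined condition. The libraries lay above WT without overlap for 7 genes (17.5% of all features) and below for Pramef12 (13.1%). The 7 genes include Prame, with 1 and 1 counts in Setdb1 KO mESCs and 0 in WT. The median log2 fold change was 2.08, or 1.90 without Prame, whose counts were at or under the floor in both conditions. In UNC0642-treated mESCs the adjusted p passed for 0 of the 11 genes and for 0% of all features. At an unadjusted p under 0.05 there were 7 of the 11 genes and 545 of all features, and with the block Pramef17 and Pramef25 rose (0.166% of all features higher). DESeq2 on the 4 libraries compared called these genes and Pramel6 (0.546% of all features higher). The UNC0642-treated libraries lay above WT for 10 of the 11 genes (13.7% of all features), with a median log2 fold change of 3.08, or 2.64 with Prame at its lower bound.

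**Figure D2:**
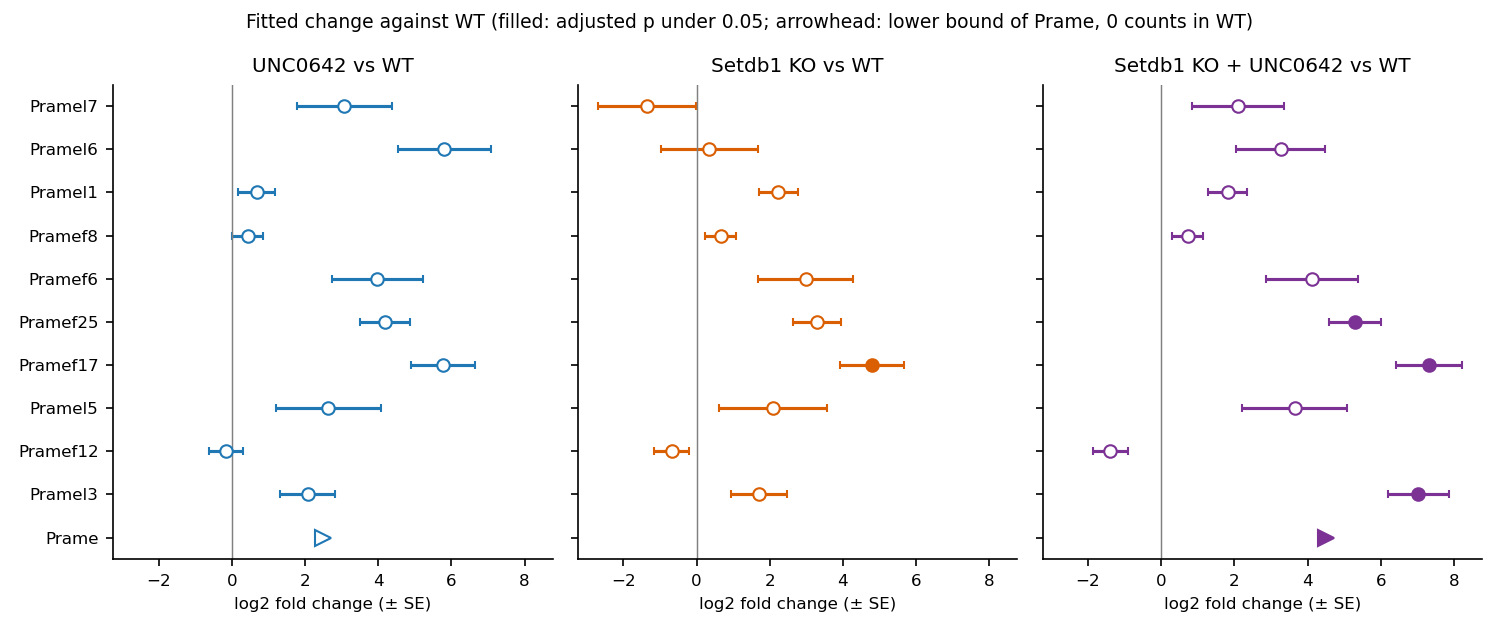
Fitted log2 fold change against WT mESCs (x axis, with SE) of the 11 tested genes (y axis) in UNC0642-treated, Setdb1 KO and the combined condition; filled symbols mark an adjusted p under 0.05 and arrowheads a lower bound for Prame, which had 0 counts in WT mESCs and is not drawn for Setdb1 KO mESCs. Pramef17 is filled for both Setdb1 KO conditions, and Pramef25, Pramel3 and Prame for the combined one.

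Pramef17 and Pramef25, which sit beside each other in the middle of the chromosome 4 array, had separate levels in all 4 conditions. Pramef17 had 0 and 2 counts in the WT libraries, which is under the floor. Its level was 3.10 and 2.73 CPM in UNC0642-treated, 1.65 and 1.32 CPM in Setdb1 KO, and 9.75 and 7.53 CPM in the combined condition. The 4 conditions do not overlap, with WT lowest, followed by Setdb1 KO, UNC0642 and the combined condition. The ratio of counts to WT was 159 in the combined condition (95% counting interval 43.7 to 1320), 56.7 in UNC0642-treated mESCs (15.4 to 473) and 29.5 in Setdb1 KO mESCs (7.85 to 249). The fitted log2 fold change was 7.32 ± 0.90 (SE) in the combined condition (edgeR adjusted p = 0.00499), 4.79 ± 0.87 in Setdb1 KO (adjusted p = 0.0362) and 5.76 ± 0.87 in UNC0642-treated mESCs (adjusted p = 0.187, and 0.0412 with the replicate block). Its closest copy Gm13128 had 0 and 3 counts in the WT libraries and 13 and 96 counts in the libraries of the combined condition, fewer than the 94 and 205 counts of Pramef17.

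Pramef25 was at 0.261 and 0.649 CPM in WT mESCs, 10.6 and 7.12 CPM in UNC0642-treated mESCs, 3.22 and 6.33 CPM in Setdb1 KO mESCs and 17.2 and 21.1 CPM in the combined condition. The conditions fall in the same order as for Pramef17, again with no overlap. Against WT the log2 fold change was 5.30 ± 0.71 in the combined condition (edgeR adjusted p = 0.00661), 4.18 ± 0.68 in UNC0642-treated mESCs (adjusted p = 0.187, with the block 0.0412) and 3.29 ± 0.66 in Setdb1 KO mESCs (adjusted p = 0.0576, with the block 0.0110). The combined condition did not pass against either single treatment for Pramef25 (log2 differences 2.01 ± 0.60 from Setdb1 KO and 1.11 ± 0.58 from UNC0642) or for Pramef17 (2.53 ± 0.65 and 1.56 ± 0.62). Gm13040, which shares 34.1% of the stretches of Pramef25, had 6 and 43 counts in the WT libraries, against 311 and 696 in libraries of the combined condition.

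Pramel3 and Prame, the X-linked members, reached their highest levels in the combined condition. Pramel3 was at 0.0870 and 0.289 CPM in WT, 0.799 and 1.01 CPM in UNC0642-treated, 0.381 and 1.05 CPM in Setdb1 KO, and 22.2 and 34.1 CPM in the combined condition. Both libraries of the combined condition lay more than 20 CPM above every other library, while the single treatments overlapped each other. The log2 fold change of Pramel3 was 7.03 ± 0.84 against WT (edgeR adjusted p = 0.00480), 4.95 ± 0.74 against UNC0642-treated mESCs (adjusted p = 0.0191) and 5.31 ± 0.76 against Setdb1 KO mESCs (adjusted p = 0.177, with the block 0.00704). It was the single member called against UNC0642-treated mESCs, where 1.13% of all features were called higher and 0.0369% lower, and this call was lost without UNC0642 replicate 1, without UNC0642 replicate 2 and without replicate 2 of the combined condition. Against Setdb1 KO mESCs 0 members and 0% of all features were called, with 6 of the 11 members and 744 features at an unadjusted p under 0.05 and 3 members called by DESeq2 on the 4 libraries (Prame, Pramef17 and Pramel3, with 0.646% of all features higher), and Pramel3 by edgeR with the block (0.123% higher). Gm15023, with which Pramel3 shares 71.1% of its stretches, had 0 and 4 counts in the WT libraries, against 126 and 602 in the combined condition, beside 214 and 927 counts of Pramel3.

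Prame, the mouse gene that carries the family name, had 0 counts in both WT libraries. It had 12 and 9 counts in UNC0642-treated, 1 and 1 in Setdb1 KO, and 34 and 30 in libraries of the combined condition, or 3.53 and 1.10 CPM in the last. WT and Setdb1 KO mESCs were thus at or under the floor, and the replicates of the combined condition differed 3.20-fold in level. Prame was at least 22.7-fold higher in the combined condition than in WT mESCs, taking 3 counts over both WT libraries (edgeR adjusted p = 0.0222), and at least 5.59-fold higher in UNC0642-treated mESCs, where it was not called (adjusted p = 0.597). The call was lost without replicate 1 of the combined condition, without WT replicate 1 and without WT replicate 2.

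**Figure D3:**
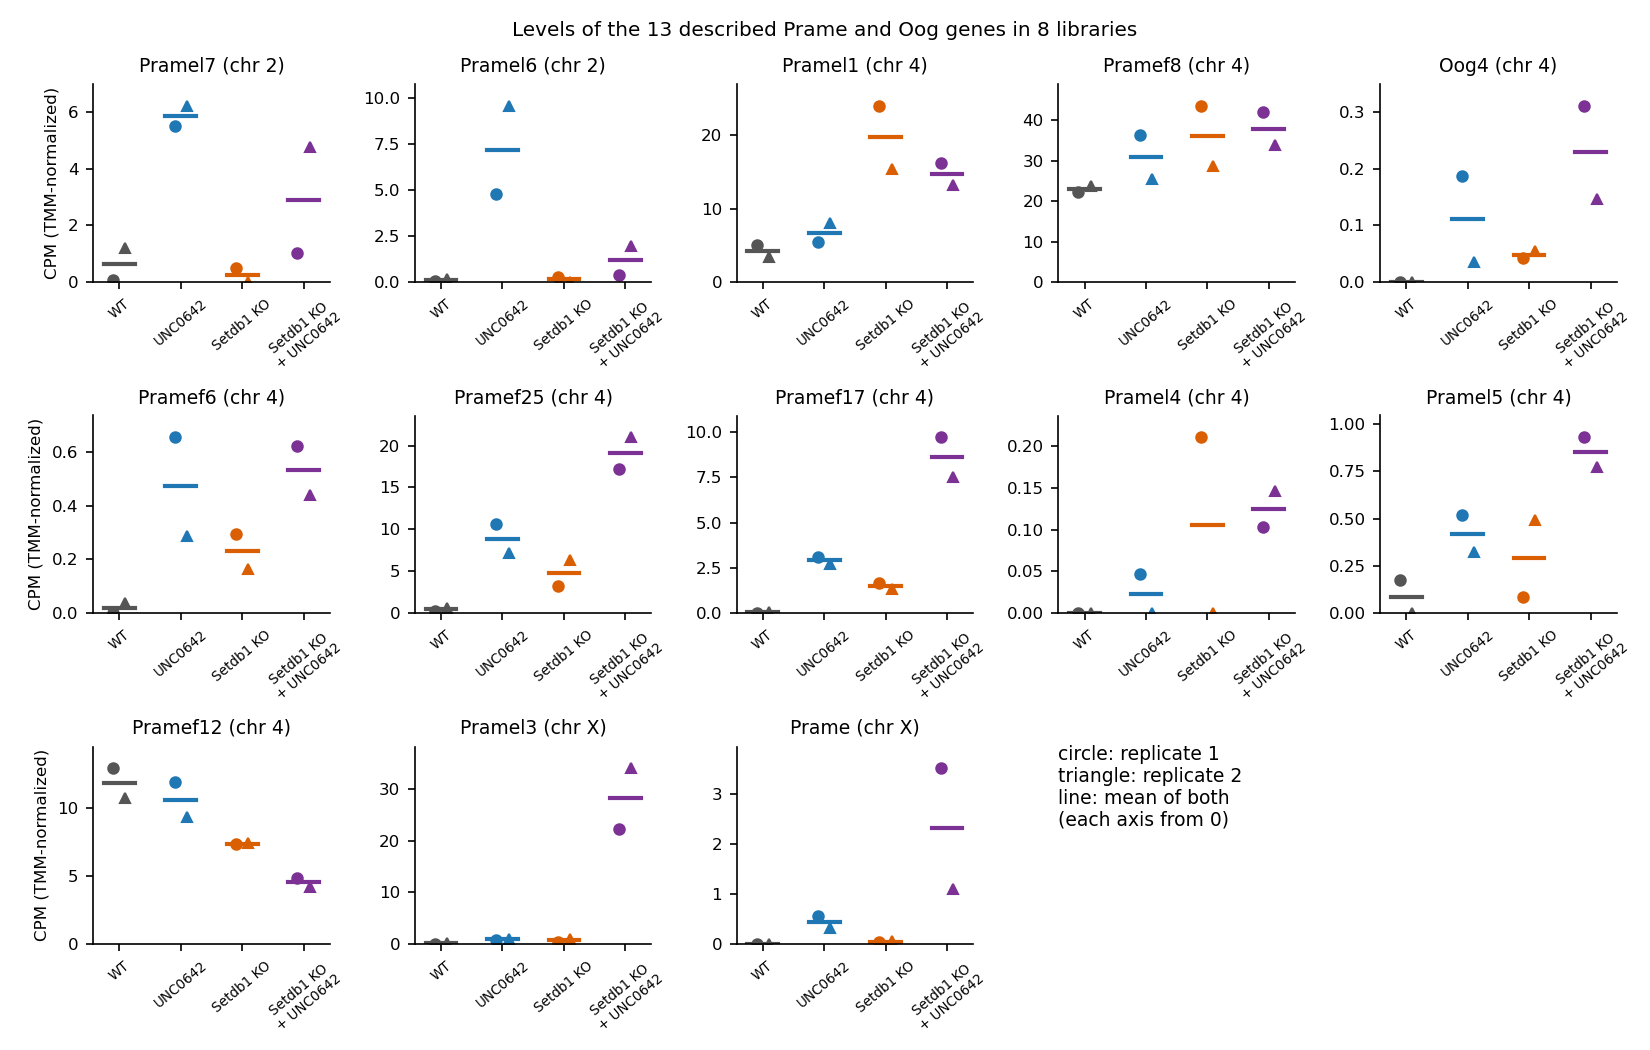
Level (CPM, TMM-normalized, y axis from 0 and scaled to each gene) of the 13 described genes in the 4 conditions (x axis), with 1 symbol per library and a line at the mean of the 2 replicates. Pramel3 and Prame are highest in the combined condition, Pramel7 and Pramel6 in UNC0642-treated mESCs, Pramel1 in Setdb1 KO mESCs, and Pramef12 in WT mESCs.

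Pramel7 and Pramel6, the members known for naive pluripotency, had their highest level in UNC0642-treated mESCs but passed the edgeR test in 0 of the comparisons. Pramel6 was at 0.0870 and 0.144 CPM in WT, 4.79 and 9.60 CPM in UNC0642-treated, 0.296 and 0 CPM in Setdb1 KO, and 0.415 and 1.95 CPM in the combined condition. The UNC0642-treated libraries lay above all others, and WT and Setdb1 KO mESCs overlapped. The log2 fold change of Pramel6 was 5.81 ± 1.27 in UNC0642-treated mESCs (edgeR adjusted p = 0.275, with the block 0.0995, and 1.44e-06 by DESeq2 on the 4 libraries), 0.34 ± 1.32 in Setdb1 KO and 3.27 ± 1.21 in the combined condition (edgeR adjusted p = 1 and 0.190). Between the combined condition and UNC0642 alone it was -2.54 ± 1.02 (edgeR adjusted p = 0.466, and 0.0492 by DESeq2 on the 4 libraries, which called 0.295% of all features lower).

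Pramel7 was at 0.0870 and 1.19 CPM in WT mESCs, a 13.7-fold difference between replicates. It was at 5.50 and 6.22 CPM in UNC0642-treated, 0.508 and 0 CPM in Setdb1 KO, and 1.04 and 4.78 CPM in the combined condition. Again the UNC0642-treated libraries lay above all others, whereas the combined condition overlapped WT. The log2 fold change against WT was 3.08 ± 1.29 in UNC0642-treated, -1.35 ± 1.34 in Setdb1 KO and 2.097 ± 1.26 in the combined condition (edgeR adjusted p = 1, 1 and 0.443). In both genes replicate 2 exceeded replicate 1 in the combined condition (4.69-fold for Pramel6 and 4.60-fold for Pramel7), and replicate 2 had 0 counts in Setdb1 KO mESCs.

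Genes for the known partners and targets of PRAMEL7 were listed beside them. Of 8 genes (Cul2, the elongin genes Tceb1 and Tceb2, Rbx1, Uhrf1, Dnmt1, and the other substrate receptors Lrr1 and Fem1b), 0 were called in any comparison, with or without the block. Their median log2 fold change was 0.10 under UNC0642, -0.05 under Setdb1 KO and 0.19 in the combined condition. The level of Uhrf1, which guides the maintenance DNA methyltransferase, was 354 ± 123 CPM in WT mESCs, 399 ± 43.8 CPM under UNC0642, 280.2 ± 3.82 CPM under Setdb1 KO and 265 ± 61.8 CPM in the combined condition (SD, n = 2). These are RNA levels, and UHRF1 protein was not measured in these libraries.

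The 3 members of the chromosome 4 array with a clear level in WT mESCs lie at its ends: Pramel1 and Pramef8 at one end and Pramef12 at the other. None of these genes shared a stretch of 50 bases with another gene. Per kb of transcript, the mean WT level was 5.49 ± 0.248 CPM per kb for Pramef8, 4.61 ± 0.610 for Pramef12 and 1.504 ± 0.429 for Pramel1 (SD, n = 2). Pramef25, the highest of the 8 genes between them, was at 0.270 ± 0.163 CPM per kb.

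Pramel1 had its highest level in Setdb1 KO mESCs. It was at 5.05 and 3.35 CPM in WT, 5.40 and 8.02 CPM in UNC0642-treated, 24.0 and 15.4 CPM in Setdb1 KO, and 16.2 and 13.2 CPM in the combined condition. Both Setdb1 KO conditions lay above both others, and they overlapped each other. The log2 fold change was 2.24 ± 0.53 in Setdb1 KO mESCs (edgeR adjusted p = 0.104, with the block 0.0146), 1.81 ± 0.52 in the combined condition (adjusted p = 0.0951, with the block 0.0160) and 0.68 ± 0.51 in UNC0642-treated mESCs (adjusted p = 1).

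Pramef8, the member with most counts, showed small fitted changes. It was at 22.2 and 23.7 CPM in WT, 36.2 and 25.5 CPM in UNC0642-treated, 43.5 and 28.7 CPM in Setdb1 KO, and 41.9 and 33.7 CPM in the combined condition. All treated libraries lay above both WT libraries, but the log2 fold changes of 0.43 ± 0.41, 0.66 ± 0.41 and 0.72 ± 0.41 passed neither with nor without the block. Pramef12 went the other way, at 12.97 and 10.7 CPM in WT, 11.9 and 9.31 CPM in UNC0642-treated, 7.36 and 7.43 CPM in Setdb1 KO, and 4.88 and 4.19 CPM in the combined condition. The UNC0642-treated libraries overlapped WT, both Setdb1 KO conditions lay below, and the combined condition was lowest. The log2 difference of Pramef12 between the combined condition and WT was -1.39 ± 0.48 (edgeR adjusted p = 0.159), and its adjusted p was 0.0221 with the block.

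**Figure D4:**
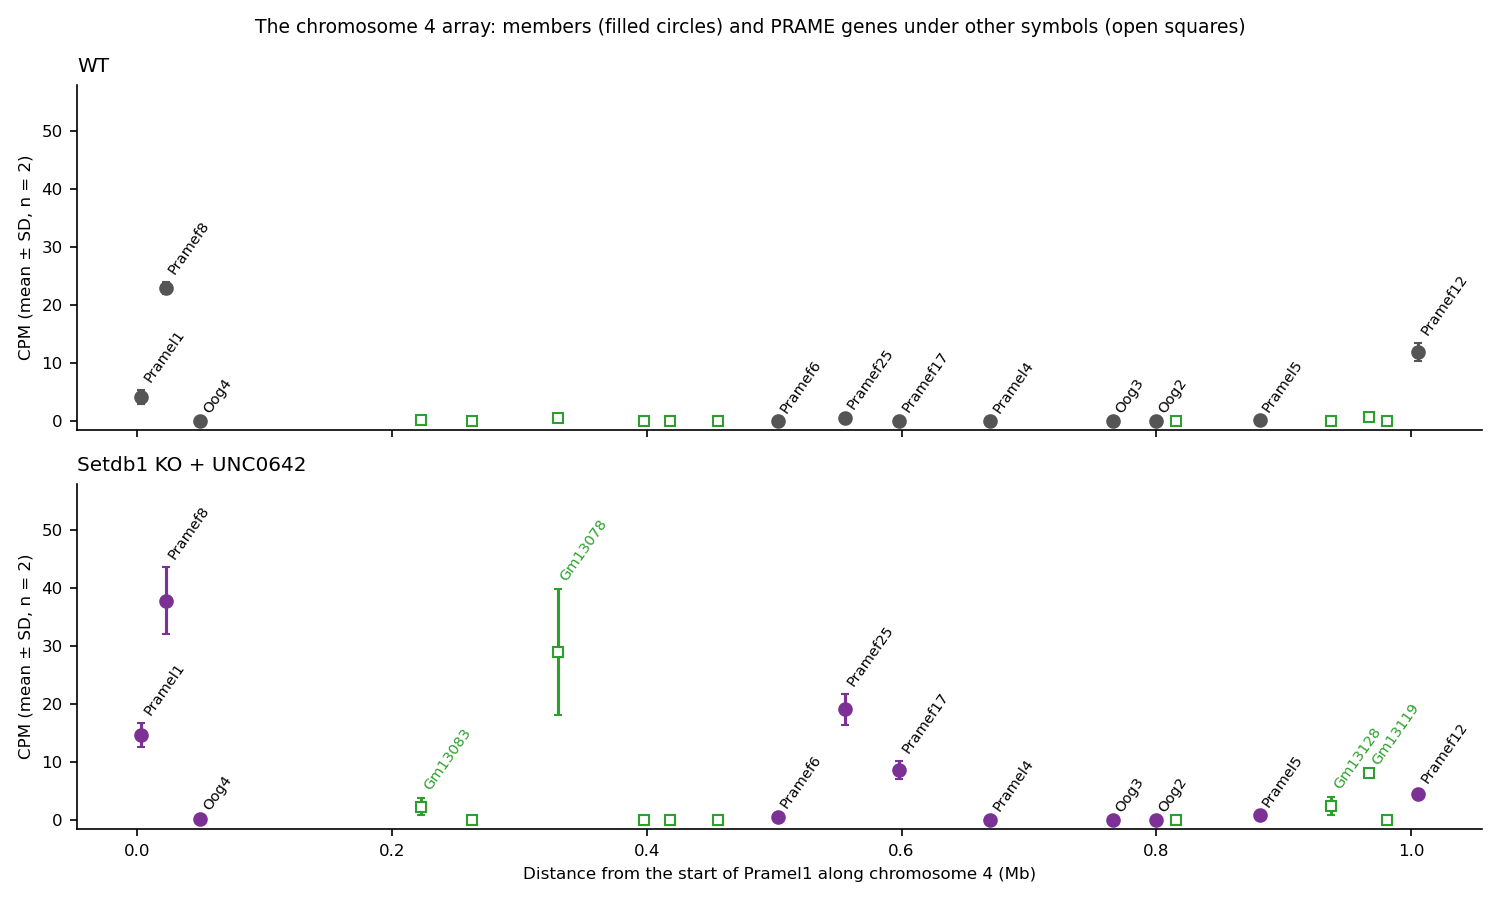
Mean level (CPM, y axis, with the SD of 2 libraries) of the genes of the chromosome 4 array against distance from the start of Pramel1 in Mb (x axis), in WT mESCs (top) and the combined condition (bottom). Filled circles are the 11 Prame and Oog genes. Open squares are PRAME genes under other symbols that were matched by name, which are not all copies in the array. In WT the genes with a clear level are Pramel1, Pramef8 and Pramef12 at the ends. Among the genes drawn in the bottom panel, Gm13078, Pramef25, Pramef17 and Gm13119 also stand above 5 CPM.

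The remaining array members stayed near the floor. Pramef6 had 0 and 1 counts in WT, 14 and 8 in UNC0642-treated, 7 and 3 in Setdb1 KO, and 6 and 12 in libraries of the combined condition. It was called in 0 of the comparisons (log2 fold change 4.12 ± 1.26 in the combined condition, edgeR adjusted p = 0.115, with the block 0.0431). Pramel5 had 2 and 0, 11 and 9, 2 and 9, and 9 and 21 counts in the same order, with a count ratio of the combined condition to WT of 16.0 (95% counting interval 4.05 to 138) and an edgeR adjusted p of 0.216. Pramel4 had at most 5 counts and Oog4 at most 4 counts in a library, and neither had a count in WT mESCs. Among the 4 Oog genes, therefore, none reached 5 counts in any library, and a level under the floor of 0.108 to 0.311 CPM would not have been detectable at this depth.

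Whether the effect of UNC0642 depended on Setdb1 was tested as an interaction. It was called for 0 of the 11 genes and 0% of all features by edgeR, and 3 members were among the 122 features at an unadjusted p under 0.05. The interaction of Pramel3 was positive, with a log2 value of 3.23 ± 1.03, so that the fitted value of the combined condition exceeded the sum of the single log2 changes. Those of Pramef17 (-3.23 ± 1.06) and Pramef25 (-2.18 ± 0.86) were negative, so that it lay below that sum. The median over the 11 genes was -1.08, and -0.04 over all features. Pramef17 had 0 and 2 counts in the WT libraries, under the floor, so its changes against WT depend on the prior count. With a prior count of 2, its log2 fold change in the combined condition was 5.95 in place of 7.32. In Setdb1 KO mESCs it was 3.49 in place of 4.79.

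PRAME genes that carry other symbols in the files were examined as a separate list of 20 genes, of which 12 reached 10 counts and 11 were tested. They were matched by symbol or synonym to a current RefSeq symbol that starts with Prame or Oog. The list is therefore not the full set of copies. Gm13040 and Gm15023 are not among the genes named below, and no test of either is given here. Their counts, given above, were higher in the combined condition than in WT mESCs. In the combined condition 8 of the 11 rose against WT mESCs (10 with the block) and 0 fell. Over all features 3.6% were called higher, and 9.98% with the block. The median log2 fold change over the 11 was 5.21. The 8 genes called without the block were A430089I19Rik, B020004J07Rik, Gm12794, Gm13078, Gm13119, Gm13128, Gm3139 and Gm7978. The highest level was that of Gm12794, at 0.846 ± 0.334 CPM in WT and 64.98 ± 50.002 CPM in the combined condition (SD, n = 2), and A430089I19Rik stood at 1.43 ± 0.0771 and 52.7 ± 19.5 CPM. Under UNC0642 alone and under Setdb1 KO alone 0 of the 11 were called, where 0% and 1.11% of all features were called higher. With the block 3 and 5 rose, where 0.166% and 3.8% of all features did. Their summed level was 3.05 to 4.73 CPM in WT, 35.9 to 104 CPM in UNC0642-treated, 35.3 to 62.4 CPM in Setdb1 KO and 124 to 241 CPM in the combined condition. Replicate 1 was the higher library in each treated condition. Among the tested Prame genes, Pramel3, Pramel6, Pramel7 and Pramef25 were higher in replicate 2 of the combined condition. The other tested members were higher in replicate 1 of that condition.

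Markers of other cell states were counted in the same libraries. A list held genes of the two-cell-like state, a rare state of mESC cultures. This state expresses genes of the early embryo such as the Zscan4 cluster. Of its genes, 21 of 26 tested rose in the combined condition (24 with the block). Of all features 3.6% did without the block and 9.98% with it. In Setdb1 KO mESCs 3 rose (14 with the block), against 1.11% of all features without the block and 3.8% with it. In UNC0642-treated mESCs 0 rose (5 with the block), against 0% of all features without the block and 0.166% with it. In these comparisons 0 fell. Their summed level was 21.4 to 57.8 CPM in WT, 575 to 1449 CPM in UNC0642-treated, 293 to 671 CPM in Setdb1 KO and 1265 to 2568 CPM in the combined condition. In each treated condition this sum was higher in replicate 1. In the combined condition Prame, Pramef17, Pramel1, Pramef8, Pramef12, Pramef6 and Pramel5 were also higher in replicate 1. Pramel3, Pramel6, Pramel7 and Pramef25 were higher in replicate 2. By mean level the two-cell-like sum was highest in the combined condition. So were Pramef17, Pramef25, Pramel3, Prame, Pramef8, Pramef6 and Pramel5. Pramel6 and Pramel7 were highest in UNC0642-treated mESCs, Pramel1 in Setdb1 KO mESCs and Pramef12 in WT mESCs. B020004J07Rik is on the list of two-cell-like genes and on that of the PRAME genes. Dux, the factor that opens this programme, had a log2 fold change of 2.05 ± 1.04 in the combined condition and 2.59 ± 1.05 in Setdb1 KO mESCs (edgeR adjusted p = 0.349 and 0.486), and it rose in both with the block (adjusted p = 0.0200 and 0.0244). The part of two-cell-like cells in the levels of the Prame genes was not tested. Of 19 oocyte genes, 9 were tested and 0 called in any comparison. With the block Khdc3 and Tle6 fell in the combined condition against WT mESCs, where 7.19% of all features were called lower. The summed level of the 19 genes was 83.6 to 177 CPM, and between 4 and 8 of the 19 were at 0 in each library. Of 17 differentiation markers, 15 were tested and 0 called in any comparison, and with the block Gata4, a gene of the endoderm and heart, fell in the combined condition against UNC0642-treated mESCs (adjusted p = 0.0484). In replicates 1 and 2 their summed level was 33.5 and 90.1 CPM in WT and 78.4 and 121 CPM in UNC0642-treated mESCs. It was 26.7 and 52.0 CPM in Setdb1 KO mESCs and 38.6 and 65.6 CPM in the combined condition. Replicate 2 was thus the higher library in every condition, and the source of this difference was not tested.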

How the data were processed

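RNA-seq of poly(A) RNA was deposited as raw counts per gene and transposable element subfamily, 1 table for each of the 8 libraries. The authors trimmed reads with Trim Galore 0.3.7, mapped them with TopHat2 to GRCm38/mm10 and made the counts with TEtranscripts, which shares reads among copies. The gene annotation and strand setting are not given in the sources used here. The sample labels gave groups and replicate numbers. The Prame and Oog genes and all lists were chosen with earlier results of these data known. Members with 10 counts in all were described, and full statistics were given for those called by any fit and for Pramel6 and Pramel7.

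Features were kept by filterByExpr (minimum count 10, total 15), which left 15313 genes and 932 subfamilies. Quasi-likelihood tests were run on all 8 libraries in edgeR 4.0.16 (R 4.3.3) with TMM factors (0.810 to 1.20) and 1 coefficient per condition, in 6 contrasts, with Benjamini-Hochberg adjustment within each over all 16245 features. DESeq2 1.42.0 was an alternative. The prior count for fold changes was 0.125, and the SE was derived from the F statistic. Same-numbered replicates deviated together in all 6 pairs of conditions (r 0.285 to 0.663, median 0.587, across 15313 genes, which are not independent replicates). The main fit and the fits that leave out 1 library ignore this pairing. A fit blocked on the replicate numbers was therefore run as an alternative, and it is quoted where it changes a call or a count given here. A group at 0 was set to 3 counts over both libraries for a lower bound, and ratios to 1 to 3 counts carry a 95% binomial counting interval; both cover counting error only. Genes were placed on GENCODE M21 (GRCm38), and promoter windows came from RefSeq (GRCm38.p6). Identity was computed by global alignment with Biopython 1.88. Figures were drawn with matplotlib 3.10.9.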

Additional observations from a re-analysis of the deposited data

How the results depend on the processing

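Of 108 alternative values for the 6 called changes 0 reversed direction, 89 stayed called and 19 lost the call. With the replicate block, edgeR called 2 members under UNC0642, 3 under Setdb1 KO, 7 in the combined condition, and 1 in the combined condition against Setdb1 KO mESCs; the block changed no other count of members by over 1.5 times. DESeq2 on all 8 libraries called 3 members under UNC0642 and 3 under Setdb1 KO. In the combined condition it called 6 against WT and 3 against Setdb1 KO mESCs. DESeq2 on only the 4 libraries compared called 3, 3, 4 and 3 in the same comparisons. Between the combined condition and UNC0642-treated mESCs it called 2. DESeq2 with the replicate block, added after the data were examined, called 3, 3, 7, 4 and 4 members in the 5 pairwise comparisons. EdgeR on only 4 libraries called 0 in Setdb1 KO mESCs. Library totals in place of TMM called 0 in Setdb1 KO mESCs and 0 in the combined condition against UNC0642-treated mESCs, and shifted the median of all features by up to -0.21 on the log2 scale. Without the expression filter 2, 2 and 1 members were called under UNC0642, under Setdb1 KO, and in the combined condition against Setdb1 KO mESCs. No share over all features is given beside the counts of this paragraph, and a fit that calls more features may also call more members. The counts are thus no measure of how the members differ from other features. The causes of these shifts were not tested.

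Leaving out 1 library at a time, the members called ranged from 0 to 1 in Setdb1 KO mESCs (1 without either UNC0642 library, 0 without any other), from 0 to 4 in the combined condition against WT and from 0 to 1 in the combined condition against UNC0642-treated mESCs. The adjusted p of the 4 members called in the combined condition ranged over these fits from 0.0261 to 0.171 for Prame, 0.00382 to 0.0660 for Pramef17, 0.00479 to 0.0734 for Pramef25 and 0.00296 to 0.0692 for Pramel3. A lone library of a condition is then assumed to vary like the other conditions. Pramel4 and Oog4, with 11 and 14 counts in all, failed the expression filter; without the filter both were fitted and neither was called.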
